A study of Mus musculus with 8 samples.

Results

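*Abca17*, *Cntnap5b* and *Cgn* were the 3 protein-coding genes that lay at the strongest autosomal ATAC-seq peaks listed for *Arid1a* cKO pachytene spermatocytes and not for *Arid1a* WT pachytene spermatocytes. They were selected on the −log10 q-value of a cKO peak overlapping none of the WT peaks, here called a gained peak, out of 20807 autosomal protein-coding genes. Because the presence and the strength of these peaks chose the genes, both are given as a description without a test. ATAC-seq inserts adapters into open DNA with the Tn5 transposase, so that stretches with many inserted fragments mark accessible chromatin. The series held 4 libraries per genotype, made by the Omni-ATAC protocol from pachytene spermatocytes that had been purified by Sta-Put gravity sedimentation, pooled from adult males and cryopreserved. The data used here were 1 peak list per genotype.

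The *Arid1a* floxed mice were kept on a CD1 background, while the background of the *Stra8-Cre* line and of the crossed males is not stated. The *Arid1a* cKO males carried *Arid1a* fl/fl together with *Stra8-Cre* Tg/0, a transgene in which the *Stra8* promoter drives Cre in spermatogonia before meiosis. The *Arid1a* WT males came from the same crosses and carried *Arid1a* fl/fl or *Arid1a* fl/+ without the transgene. Excision by *Stra8-Cre* is incomplete, so that cKO libraries mix cells that lack ARID1A with cells that keep it. In such pooled cells, a site that opens in more cells and a site that opens further in each cell cannot be told apart.

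ARID1A is a DNA-binding subunit of the BAF form of the SWI/SNF complex, which slides and evicts nucleosomes and is required for accessibility at many enhancers and promoters. In pachytene spermatocytes the homologs are synapsed and the sex chromosomes are transcriptionally silenced, while autosomal transcription is high. *Abca17* encodes a member of the ABCA transporters, which move lipids across membranes. *Cntnap5b* encodes a contactin-associated protein of the neurexin superfamily, a group of neuronal adhesion proteins. *Cgn* encodes cingulin, a cytoplasmic protein of the tight junction plaque that binds ZO-1.

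The WT list held 19309 peaks and the cKO list 30244 after entries of the same peak name had been joined. Of 28553 autosomal cKO peaks, 12281 were gained, which is 43% of them, and the other 16272 were common to both lists. Common peaks that paired 1 to 1 between the lists had a median cKO to WT ratio of fold enrichment of 1.47 (n = 15221), and 91.3% of them were higher in the cKO list. As read here, the values of each list belong to 1 library. The number of reads of these libraries is unknown, but their mean cover was 4.33 (WT) and 5.11 (cKO) fragments per base. The part of this difference in the ratio and in the number of peaks was not tested. The ratio thus sets 1 library against 1 other, and n counts peaks. Among 8 genes that mark pachytene spermatocytes, 7 had a listed peak within 1000 bp of their start in both lists, and *Piwil1* had none in either. Of 8 Sertoli cell genes, 1 had a WT start peak and 4 had a cKO start peak, the 3 added ones being *Wt1*, *Cldn11* and *Clu* at a −log10 q of 4.24, 6.71 and 4.24. Of all autosomal protein-coding genes, 6.56% had a cKO peak and no WT peak within 1000 bp of the start. Of 6 Leydig cell genes, 1 had a start peak in either list. *Arid1a* itself had a start peak in both lists, which does not check the deletion.

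The leading gained peak of *Abca17* was the strongest autosomal gained peak of the series. It lay at chr17:24342593-24343058 (mm10), was 466 bp wide and had a fold enrichment of 23.1 and a −log10 q of 141.9 in the cKO list. Fold enrichment is the fragment pileup at the summit over the mean fragment cover of the genome, with 1 added to each. The summit of this peak corresponded to a pileup of 140 fragments, with an exact 95% Poisson interval of 118 to 165 that covers counting error only. The peak sat 8.24 kb downstream of the gene start, in a 10478-bp intron that is intron 2 of Abca17-201 and intron 3 of both Abca17-202 and Abca17-204. The gene (ENSMUSG00000035435.17) spans chr17:24264259-24351068 on the minus strand.

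The larger part of this peak was a tandem array. A repeat unit of 33 bp ran head to tail from chr17:24342792-24343071 for 280 bp, or 8.48 copies, and covered 57.3% of the peak. Any pair of the 8 full copies was between 78.8% and 100% identical. The array is printed on the plus strand because the stretch shared by all replicate overlaps fell inside it, and alternate copies are in capitals.

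Abca17 array: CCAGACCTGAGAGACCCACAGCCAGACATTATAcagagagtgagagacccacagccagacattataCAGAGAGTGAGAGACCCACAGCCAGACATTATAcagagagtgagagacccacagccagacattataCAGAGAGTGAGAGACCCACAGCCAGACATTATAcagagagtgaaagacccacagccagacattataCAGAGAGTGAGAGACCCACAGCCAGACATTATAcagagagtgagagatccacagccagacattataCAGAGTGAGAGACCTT

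The leading gained peak of *Cntnap5b* was the second strongest autosomal gained peak. It lay at chr1:100180107-100180414 (mm10), was 308 bp wide and had a fold enrichment of 19.6 and a −log10 q of 112.6. Its summit pileup was 119 fragments (98.6 to 142). The peak sat 407 kb downstream of the gene start, in a 49427-bp intron that is intron 10 of Cntnap5b-201 and intron 4 of Cntnap5b-203. The gene (ENSMUSG00000067028.11) spans chr1:99772765-100485942 on the plus strand and, at 713 kb, is longer than 99.5% of autosomal protein-coding genes.

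The *Cntnap5b* peak held, on its reverse strand, the 9 letters TACGAGAGG, which form the core of the sarcin-ricin loop, a stretch of the large ribosomal RNA that is nearly invariant between species. The rest of the peak was not compared with a ribosomal RNA sequence. Of 28553 windows of 300 bp centred on autosomal cKO peaks, 14 held these letters on either strand (0.0490%). The first 300 bases are printed on the plus strand to show this core, in capitals at bases 101 to 109. If the peak's first listed base is where the peak of the library began, the summit was at chr1:100180203, 96 bases after that first base and so just before the core.

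Cntnap5b peak: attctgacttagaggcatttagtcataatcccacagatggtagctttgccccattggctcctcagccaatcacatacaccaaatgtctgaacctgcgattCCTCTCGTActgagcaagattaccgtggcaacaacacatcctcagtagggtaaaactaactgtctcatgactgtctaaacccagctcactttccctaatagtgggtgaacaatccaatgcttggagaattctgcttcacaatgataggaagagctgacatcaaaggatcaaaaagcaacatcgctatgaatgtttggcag

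Similar sequence stood elsewhere on the chromosomes, and 1 example without a gap, at chr1:102628186-102628340 (mm10) outside any annotated gene, is printed for comparison. It matched bases 1 to 155 of the peak at 92.9% identity. The 11 bases in capitals differ from the peak, and 1 of them lies in the core, so that the copy did not hold these 9 letters.

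Cntnap5b copy: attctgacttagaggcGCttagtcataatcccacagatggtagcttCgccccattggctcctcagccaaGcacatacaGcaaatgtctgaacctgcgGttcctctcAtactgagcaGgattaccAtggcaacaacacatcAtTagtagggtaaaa

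The leading gained peak of *Cgn* was the fourth strongest autosomal gained peak and the only 1 of the 3 at a promoter. It lay at chr3:94785999-94786997 (mm10), was 999 bp wide and had a fold enrichment of 13.9 and a −log10 q of 67.3. Its summit pileup was 84 fragments (67.0 to 104). The centre of the peak was 6 bp upstream of the gene start, and the peak covered the starts of all 4 annotated transcripts, which lie between chr3:94786451-94786492. The gene (ENSMUSG00000068876.14) spans chr3:94760069-94786492 on the minus strand. The 250 bases upstream of the outermost *Cgn* exon in RefSeq, whose end lies 17 bp beyond the GENCODE start, are printed in the direction of the gene, with the CCAAT, GC box (GGGCGG) and E-box (CACGTG) matches on either strand in capitals.

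Cgn promoter, chr3:94786510-94786759: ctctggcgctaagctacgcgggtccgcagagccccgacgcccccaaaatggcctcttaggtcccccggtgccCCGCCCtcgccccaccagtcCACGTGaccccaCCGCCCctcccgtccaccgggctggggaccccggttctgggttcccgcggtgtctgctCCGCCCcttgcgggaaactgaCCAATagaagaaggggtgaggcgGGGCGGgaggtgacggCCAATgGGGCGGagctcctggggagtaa

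The stretch held 5 GC boxes, 2 CCAAT boxes and 1 E-box. The nearest GC box began 39 bp and the nearest CCAAT box 45 bp upstream of the gene start of GENCODE. These letters are common: of 28553 windows of 300 bp centred on autosomal cKO peaks, 31.6% held GGGCGG, 31.4% held CCAAT and 6.56% held CACGTG. In its own window of this kind, *Cgn* held 4 GGGCGG and 2 CCAAT matches and no CACGTG match. The *Abca17* window held none of the 3, and the *Cntnap5b* window held 3 CCAAT matches and neither of the others. None of the 3 leading peaks held TGACGTCA (CRE), TGANTCA (AP-1), GCGCATGC (NRF1 core) or the CTCF core on either strand, which 1.24%, 5.52%, 2.50% and 0.914% of the windows held. A match describes the letters and not a bound factor.

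Over the gene bodies and 5000 bp on either side, the WT list held 1 peak and the cKO list 7, of which 6 were gained. A gained peak in this window was found for 31.8% of all 20807 autosomal protein-coding genes (6627), and the 3 genes had one because they were chosen for it. A cKO peak together with no WT peak was found for 8.03% of them (1671), and *Cntnap5b* and *Cgn* were among these. *Abca17* was not, because its promoter was listed in both genotypes.

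**Figure D1:**
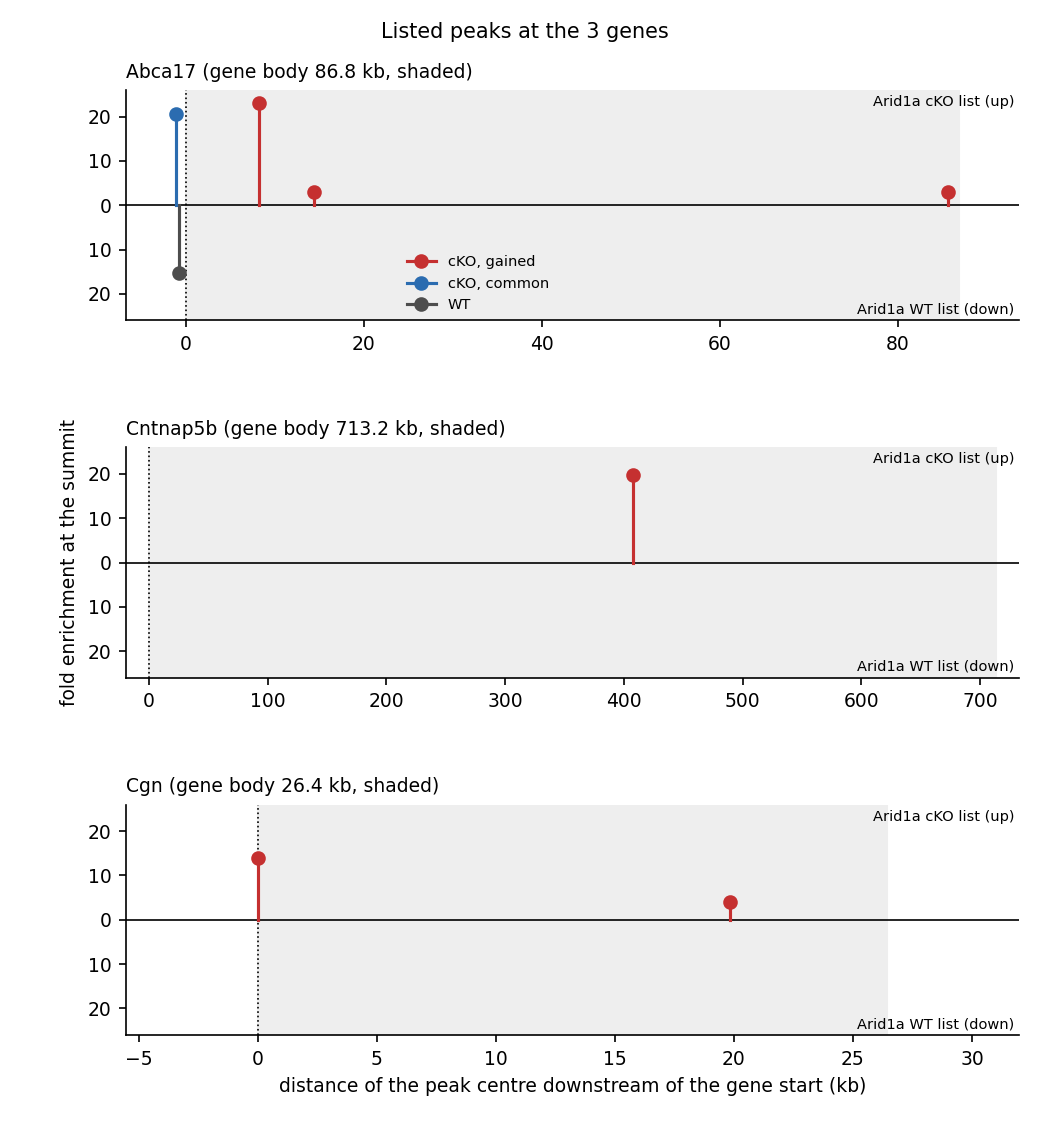
Fold enrichment at the summit (vertical axis, cKO list upward and WT list downward) of every listed peak within 5000 bp of *Abca17*, *Cntnap5b* and *Cgn*, by the distance of the peak centre downstream of the gene start in kb (horizontal axis), with the gene body shaded. The WT list holds 1 peak, at the *Abca17* start, and the tallest cKO peak at *Abca17* stands inside the gene, past its start.

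At *Abca17*, the promoter peak was common to both lists. In the WT list it lay at chr17:24350887-24352704, was 1818 bp wide and had a fold enrichment of 15.2, a −log10 q of 67.4 and a pileup of 80 fragments. In the cKO list it lay at chr17:24350729-24353609, was 2881 bp wide and had a fold enrichment of 20.6, a −log10 q of 120.8 and a pileup of 125 fragments. Its cKO to WT ratio of 1.36 was below the median of 1.47 over the paired common peaks. Over those with a cKO fold enrichment of at least 10 the median was 1.62 (n = 6748, 5th percentile 1.26). The start of *Abca3*, which encodes a lipid transporter of lung surfactant, lies 881 bp from that of *Abca17* on the other strand, and both starts fell inside the cKO peak. The peak can therefore not be assigned to either gene. If its first listed base is where the peak of the library began, its summit was at chr17:24351967 in both lists. The *Abca3* start lies at chr17:24351950 and the *Abca17* start at chr17:24351068.

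The intronic peak of *Abca17* stood above the peak over the starts of *Abca17* and *Abca3* within the cKO list. The pileups were 140 against 125 fragments, a difference inside the counting interval of 118 to 165. The 2 peaks were 7.67 kb apart. The other gained peaks of *Abca17* were weak. One of 852 bp, chr17:24265029-24265880, lay 85.6 kb downstream of the start over the 191-bp exon 29 of Abca17-202 and rested on 2 replicate overlaps. Another of 291 bp, chr17:24336488-24336778, lay 14.4 kb downstream in the same intron as the leading peak and rested on 1 overlap. Both had a fold enrichment of 2.95 and a −log10 q of 3.14, with 17 fragments at the summit, against a lowest summit of 14 fragments anywhere in the cKO list.

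At *Cntnap5b*, no listed peak lay at the gene start in either genotype, and the intronic peak was the only listed peak in a window of 723 kb. The nearest listed cKO peaks were 617 kb and 923 kb away, and the nearest WT peaks 618 kb and 668 kb away. Among the 218 autosomal protein-coding genes of 500 kb or more, 69.7% had a WT peak in the window, 87.2% a cKO peak and 69.3% a gained peak, and 70 had at most 1 cKO peak. *Cntnap5b* was thus 1 of 70 such long genes with at most 1 cKO peak.

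At *Cgn*, the cKO list held the promoter peak and a weak gained peak of 294 bp at chr3:94766524-94766817, in a 1456-bp intron, intron 14 of Cgn-201 and Cgn-202. The weak peak was 19.8 kb downstream of the start, had a fold enrichment of 3.93 and a −log10 q of 6.71 and rested on 1 overlap. The WT list held no peak at *Cgn*. The nearest WT peaks were 203 kb and 50.1 kb from the promoter peak, the nearer one at chr3:94837049-94837850 lying over the start of *Pogz*, which encodes a zinc finger protein of heterochromatin. *Abca17* differed from both other genes in this respect, since a WT peak was listed 7.83 kb from its leading gained peak.

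Each entry of a list was read as the overlap of a peak from 1 reference library with a peak of another library of the genotype, because entries of a name share their values and often an edge. On that reading, a peak found in all 4 libraries has at least 3 entries. Each of the 3 leading peaks had 3 entries. Among all autosomal gained peaks 57.1% had 3 or more, and among common peaks 97.8%. At *Abca17* the 3 entries started at chr17:24342593, chr17:24342802 and chr17:24342804 and all ended at chr17:24343058. Their shared stretch of 255 bp lay wholly inside the 33-bp array, and the 199 bp left of the array rested on 1 entry. At *Cntnap5b* the 3 entries were 303, 302 and 308 bp wide, and at *Cgn* 999, 947 and 999 bp, so that the overlaps at these genes nearly coincided.

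**Figure D2:**
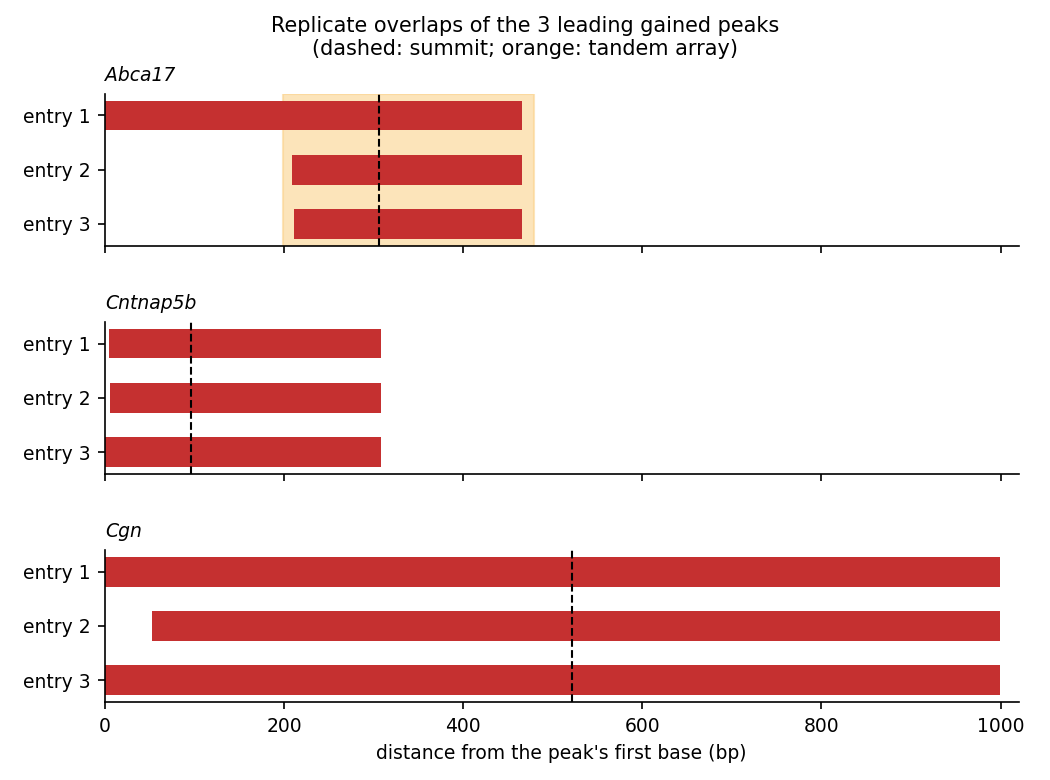
Extent of the 3 entries of each leading gained peak, in bp from the first base of the peak (horizontal axis), with the summit as a dashed line and the *Abca17* tandem array in orange. Entries 2 and 3 of *Abca17* begin inside the array, while the entries of *Cntnap5b* and *Cgn* start within 6 and 52 bp of each other.

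The 2 intronic peaks were narrow beside common peaks of like strength, while gained peaks in general were narrow too. All autosomal gained peaks had a median width of 505 bp, and 44.5% of them were no wider than the *Abca17* peak and 15.9% no wider than the *Cntnap5b* peak. The 5 gained peaks whose −log10 q reached 60, the leading peaks of the 3 genes among them, ranged from 278 to 999 bp with a median of 466 bp. Common autosomal cKO peaks whose −log10 q reached 60 had a median width of 1812 bp (n = 5371), with 1031 bp at their 5th percentile. Against the 100 common peaks nearest in −log10 q, none was as narrow as the *Abca17* peak (median 1778.5 bp, range 878 to 13159) and none as narrow as the *Cntnap5b* peak (median 1700 bp, range 797 to 8685). The *Cgn* peak, at 999 bp, was closer to its own comparison set, in which 7 of 100 were as narrow or narrower and the median was 1591 bp. Over all of these 5371 common peaks, 5 were no wider than the *Abca17* peak, none no wider than the *Cntnap5b* peak, and 218 no wider than the *Cgn* peak. Peaks are not replicates, and these shares are a description of 1 list.

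**Figure D3:**
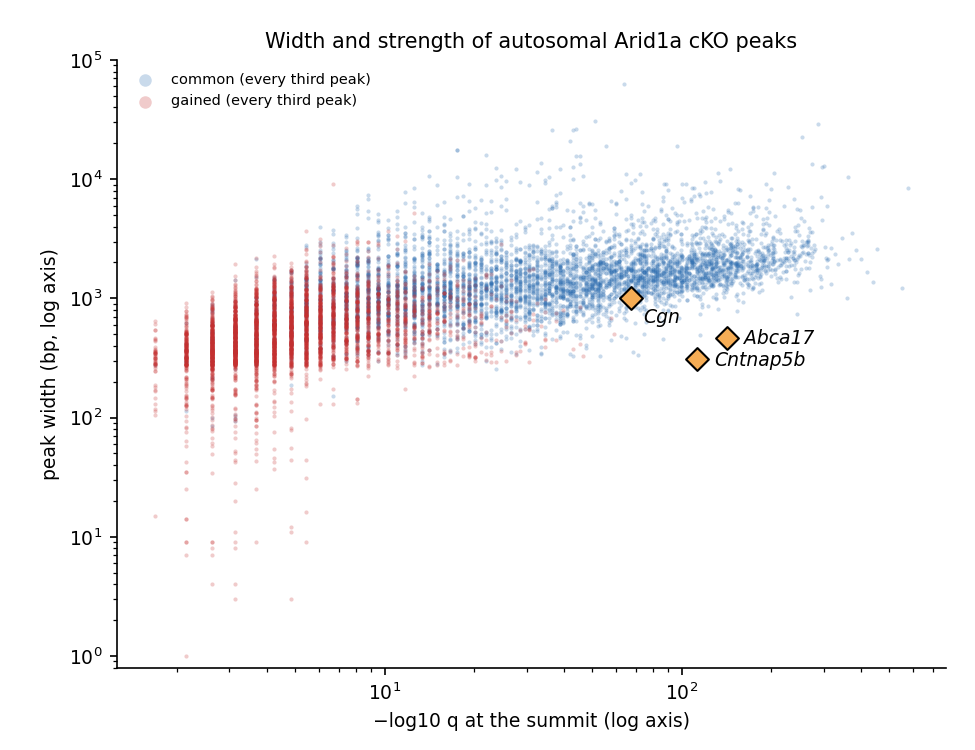
Width in bp (vertical log axis) against −log10 q at the summit (horizontal log axis) of autosomal cKO peaks, showing 1 in 3 of them, common in blue and gained in red, with the leading peaks of *Abca17*, *Cntnap5b* and *Cgn* as diamonds. The *Abca17* peak at 466 bp and the *Cntnap5b* peak at 308 bp lie below the cloud of common peaks of like strength, and the *Cgn* peak at 999 bp lies at its lower edge.

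The 3 loci differed in how often similar sequence occurred on the chromosomes (blastn, expect value at most 1e-10). The *Abca17* peak had 2211 alignments elsewhere, up to 2188 of them over a single base left of the array. The one of highest score was 81.0% identical over 195 bp, and the highest identity of any was 98.0%. The *Cntnap5b* peak had 24 alignments elsewhere, which together covered every base of it, with at most 13 over a single base. The *Cgn* peak had 0 alignments elsewhere.

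The alignment of highest score of the *Cntnap5b* peak was 91.2% identical over 217 bp and lay at chr9:123461971-123462187 within *Lars2*, which encodes the mitochondrial leucyl-tRNA synthetase. Another, 93.0% identical over 157 bp, lay at chr16:35981663-35981819 within *Gm15564* and *Kpna1*. None of the 24 touched a WT peak, and 1 touched another cKO peak. That 1 alignment, chr4:139338099-139338186, fell in a common cKO peak of 1808 bp with a fold enrichment of 6.55 and a −log10 q of 19.2. Of the 2211 alignments of the *Abca17* peak, 8 touched a cKO peak, among them 4 gained peaks, and 2 touched a WT peak.

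Exact repeats were counted as well. Of the 417 words of 50 bases in the *Abca17* peak, the length of 1 sequenced read end, 66.7% occurred once on the chromosomes, and the most frequent occurred 5 times. All 259 words of the *Cntnap5b* peak and all 950 of the *Cgn* peak occurred once on the assembled chromosomes. Sequence outside the assembled chromosomes was not counted. The count can therefore not show whether words of the *Cntnap5b* peak, which held the sarcin-ricin loop core, also occur there. No filter on mapping quality is described for these data, and its part in the *Abca17*, *Cntnap5b* and *Cgn* peaks was not tested.

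**Figure D4:**
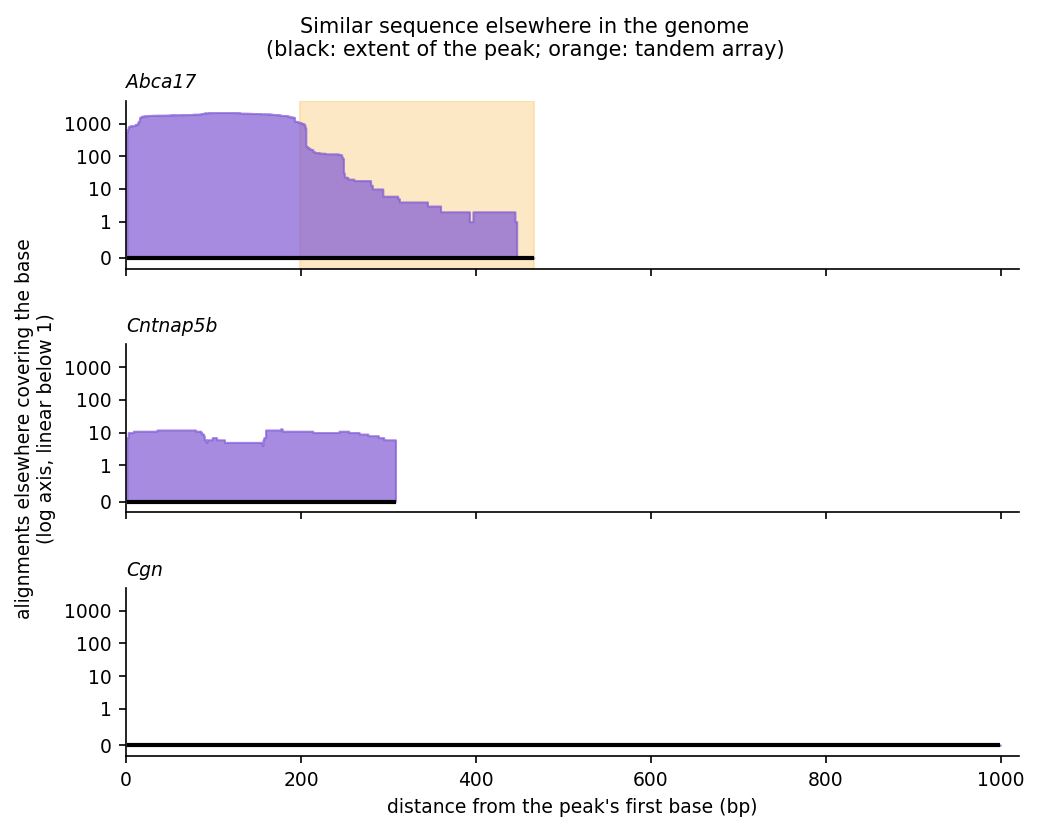
Number of alignments elsewhere on the chromosomes that cover each base of the 3 leading gained peaks (vertical axis, logarithmic above 1), in bp from the first base of the peak (horizontal axis), with the *Abca17* tandem array in orange. Cover at *Abca17* reaches 2188 left of the array and is lower along it, cover at *Cntnap5b* is at most 13 throughout, and *Cgn* has none.

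Base composition differed between the 3 peaks. GC content was 61.9% in the *Cgn* peak, 45.9% in the *Abca17* peak and 44.5% in the *Cntnap5b* peak, against a median of 51.8% over gained and 55.7% over common autosomal peaks. The ratio of observed to expected CpG was 0.65 at *Cgn*, 0.27 at *Cntnap5b* and 0.082 at *Abca17*. That of *Cgn* was above 89.7% of gained peaks and 61.2% of common peaks. The share of the reference printed in lower case, which marks known repeats, was 69.5% at *Abca17*, 2.30% at *Cgn* and 0% at *Cntnap5b*. Its median was 10.7% over gained and 10.1% over common autosomal peaks. Among peaks whose −log10 q reached 30, it was 69.6% over gained and 9.63% over common peaks. A tandem array of at least 3 copies with a unit of 10 to 100 bp was found in 6.77% of all gained and 8.46% of all common autosomal peaks. Among peaks whose −log10 q reached 30 it was found in 21 of 81 gained peaks (25.9%, 95% Wilson interval 17.6 to 36.4) and in 508 of 8512 common peaks (5.97%).

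The names in each list number the peaks of the reference library along the genome, without a break in the order. On the same reading, numbers absent from the list are peaks that the reference library had but that were not kept, 4789 of 24098 for WT and 5333 of 35577 for cKO. The WT peaks on either side of the *Abca17* leading peak carried the numbers 8898 and 8899, and those on either side of the *Cntnap5b* peak 725 and 726. Thus no WT peak had been dropped between them, over intervals of 93.5 kb and 1286 kb, and the WT reference library had no called peak at either locus. At *Cgn* the flanking WT peaks were numbers 13432 and 13436, so that 3 peaks of the reference library within 254 kb were not kept, and it cannot be told whether 1 of them lay at *Cgn*. Of 12253 autosomal gained peaks with WT peaks on both sides, 8526 lay between consecutive WT numbers (69.6%), so that this property was frequent.

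Beyond the 3 genes, the gained peaks of next highest −log10 q with a protein-coding gene in the window lay at *Peg10*, *Ppp4r4*, *Fam117b*, *Ube2e2* and *Fry*, with a −log10 q of 60.2, 56.6, 54.3, 54.3 and 50.9. The peak of *Peg10*, an imprinted gene derived from a retrotransposon, lay beyond the gene's end, 14.9 kb downstream of its start, and that of *Ube2e2*, a ubiquitin-conjugating enzyme, 2.54 kb upstream of its start. Those of *Ppp4r4*, *Fam117b* and *Fry* lay inside the genes. Each of the 5 genes had a WT peak in its window, 1 to 4 of them, as *Abca17* did and *Cntnap5b* and *Cgn* did not. The peak just outside in strength was thus at 60.2, against 67.3 for *Cgn* just inside. One gained peak without a gene in the window, chr12:9834578-9834855, stood between *Cntnap5b* and *Cgn* at a −log10 q of 89.95.

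Arrays and dispersed repeats also occurred among these 5. The *Ppp4r4* peak held an array of 34-bp units over 253 bp and the *Peg10* peak one of 19-bp units over 112 bp. The peaks of *Fam117b*, *Ube2e2* and *Fry* each held 50-base words with up to 874 exact occurrences on the chromosomes, where *Abca17* reached 5. None of the 5 resembled *Cgn* in having no alignment elsewhere, the lowest number being 4 at *Peg10*.

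The families of the 3 genes were described by counts, and the lists had been chosen with results of these data known. Of the 15 other ABCA genes, 8 had a WT peak in the window, 9 a cKO peak and 2 a gained peak (13.3%, against 31.8% of all genes). The gained peaks were at *Abca4*, the retinal lipid flippase of photoreceptors, with a −log10 q of 6.71, and at *Abca7*, a phospholipid transporter, with 4.24.

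Of the 12 other contactin-associated protein and contactin genes, 4 had a WT peak, 7 a cKO peak and 6 a gained peak (50%), beside 31.8% among all genes and 69.3% among genes of 500 kb or more. The strongest were at *Cntnap5c* (−log10 q of 10.97), *Cntn3* (10.2), *Cntn1* (8.07) and *Cntnap2* (7.38), all neuronal adhesion genes. The *Cntnap5c* peak was centred 524 bp upstream of the gene start, whereas those of the other 3 genes lay 77.6 kb or more inside, as did that of *Cntnap5b*.

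Of the 27 other tight junction genes, 19 had a WT peak, 25 a cKO peak and 15 a gained peak (55.6%), and 7 had a cKO peak and no WT peak. Over all autosomal protein-coding genes the shares were 60.7% with a WT peak, 68.4% with a cKO peak, 31.8% with a gained peak and 8.03% with a cKO peak alone. The strongest gained peaks were at *Marveld3*, a membrane protein of the junction (−log10 q of 32.6), *Pard3*, a polarity scaffold (14.1), *Tjp1*, which encodes ZO-1, the partner of cingulin (10.97), and *Mpdz*, a multi-PDZ scaffold (8.77). *Cgnl1*, the paralog of *Cgn*, had 1 WT and 3 cKO peaks, with its strongest gained peak at 6.07 and 46.1 kb inside the gene. Like *Cgn*, *Cgnl1* had a cKO start peak and no WT start peak. The same held for *Ocln*, *Marveld2*, *Jam2*, *Cldn5*, *Cldn7*, *Cldn11*, *Mpdz*, *Esam* and *Arhgef2*, and the reverse for *Cldn3*. Unlike that of *Cgn*, the cKO start peaks of *Cldn7* and *Arhgef2* were common. They overlapped a WT peak that did not come within 1000 bp of the start. *Arhgef2* had 0 gained peaks, and the 1 gained peak of *Cldn7* lay 3.84 kb downstream of its start. Over all autosomal protein-coding genes, 6.56% had a cKO peak and no WT peak within 1000 bp of the start. *Cldn11*, the claudin of Sertoli cell junctions, had a cKO start peak at 6.71 and no WT peak. It is itself 1 of the Sertoli cell genes counted above, so that this is the same peak and not a further one. The part of Sertoli cells in the *Cgn* peak was not tested.

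**Figure D5:**
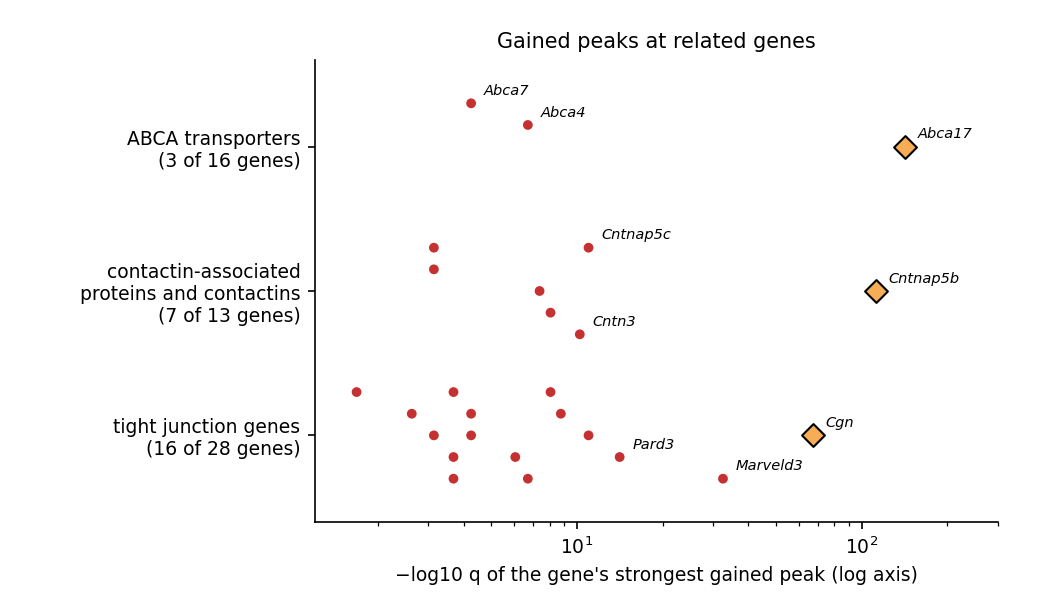
The −log10 q of the strongest gained peak (horizontal log axis) of each gene in 3 related groups that had a gained peak in its window, with *Abca17*, *Cntnap5b* and *Cgn* as diamonds and genes without a gained peak left out. *Abca17* at 141.9 and *Cntnap5b* at 112.6 lie far right of the next genes of their groups at 6.71 and 10.97, and *Cgn* at 67.3 lies right of *Marveld3* at 32.6. The 3 genes were chosen for this value, so that their place at the right was set by the choice.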

How the data were processed

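The deposited data were 1 bed list per genotype. Per the study's methods, the authors trimmed 50-bp paired reads (Trim Galore), aligned them to mm10 (Bowtie2), removed duplicates (Picard) and mitochondrial reads, called peaks in each library with MACS2 at a q threshold of 0.05 and intersected replicates. The deposited values used were the fold enrichment (a ratio), the q-value as −log10 and the summit offset. The p-value and the integer score were not used. Values belong to the reference library of a list, and the number of reads per library is unknown. Pileups were recovered from the steps of the fold enrichment, with a mean cover of 4.33 (WT) and 5.11 (cKO) fragments per base.

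Entries were joined by peak name. A cKO peak was gained when it shared less than 1 bp with every WT peak. Genes were taken from GENCODE M21 and sequences from GRCm38.p6 (RefSeq), with Python 3.11.15, samtools 1.23.1 and blastn 2.17.0. Joining and overlap were checked on simulated data. The genes, the family lists and the marker genes were chosen with earlier results of these data known. Named were the 3 genes, their nearest neighbours, up to 4 genes per family by gained −log10 q, and the 5 genes next in −log10 q. Tight junction genes with a start peak in only 1 list were named as well. With 1 list per genotype no test between genotypes was made. Intervals cover counting error only.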

Additional observations from a re-analysis of the deposited data

How the results depend on the processing

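No paired analysis was possible because each genotype was 1 merged list, and for the same reason no replicate could be left out. Of 47 alternative values, 29 stayed within 1.5 times the reported count or width, or within the interval of the reported share. The ranks of the 3 leading peaks (1, 2 and 4) were the same under all 4 alternatives tried for them, and the 29 include these. These ranks had little room to change, because the genes were chosen by −log10 q. Leaving out weaker peaks, or peaks on fewer than 3 entries, cannot lower them, and fold enrichment orders the strongest gained peaks alike. Counting each entry gave 16 cKO, 3 WT and 13 gained entries at the 3 genes. A window of 10000 bp gave 2 WT peaks. Keeping peaks whose −log10 q reached 10 left 4 cKO and 3 gained peaks, and only peaks on 3 or more entries left the same counts, 4 and 3. The share of genes with a gained peak was 23.2% over gene bodies alone, 37.9% with 10000 bp, 18.5% for peaks whose −log10 q reached 10, 28.4% on 3 or more entries, 29.7% with no WT peak within 1000 bp, and 11.4% with the cKO list shortened to the length of the WT list. Family genes with a gained peak, 23 in all, numbered 11 both for peaks whose −log10 q reached 10 and with equal list lengths. The *Abca17* peak was 255 bp wide as the stretch all entries share and 257 bp as their median. Fewer peaks or other windows make these changes by construction. The lists hold no spread between libraries, so none of the values could be set against replicate error.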
